A study of Mus musculus with 6 samples.

Results

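The genes described are the kallikreins, the transmembrane serine proteases and other serine proteases of the Prss series, with matriptase (St14), the serine protease Htra1 and the plasminogen activators Plau and Plat. They were chosen by name alone: every symbol that begins with Klk, Tmprss or Prss followed by a digit, and these 4 genes, leaving out Prss16 and any gene with fewer than 10 reads over all libraries. The names matched 85 genes, and 69 of the 24054 genes in the count table had enough reads. Most are secreted, but matriptase, the Tmprss enzymes and a few Prss enzymes such as prostasin are held at the cell surface.

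Messenger RNA of whole mouse thymus was sequenced in 3 control libraries and 3 libraries from K5-rtTA:TetO-RANKL mice. In the latter, the keratin 5 promoter, used by basal and medullary epithelium, drives a doxycycline-dependent activator, and that activator turns on a transgene for RANKL, a cytokine of the TNF family. The controls were monogenic, that is, they carried a single transgene, and which of the pair is not given in the sources used here. Both groups received doxycycline in food and water, so the drug is shared and the complete transgene pair is not. The labels give 2 schedules: doxycycline from 9 weeks of age for 2 weeks in the treatment protocol, and from 8 weeks of age for 1 week in the series design. Neither strain nor sex is given in the sources used here. As the labels do not tie each library to a separate animal, the p-values measure only how far these samples spread, which may be technical.

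Libraries held 18254870 to 25357060 counted reads, and 3 reads in a library corresponded to 0.122 to 0.161 CPM. CPM is the read count of a gene scaled to the size of its library, with TMM factors that correct for composition. Tnfsf11, the gene for RANKL, stood at 6.01, 6.34 and 8.88 CPM in control replicates 1, 2 and 3 and at 3333, 4809 and 2388 CPM in RANKL replicates 1, 2 and 3. The counts cannot separate the transgene from the mouse's own gene, and all RANKL libraries lay far above all controls. The makeup of the tissue differed as well. Summed transcripts of 10 double-positive thymocyte markers, which define the thymic cortex, were 9519 to 10543 CPM in controls and 197 to 893 CPM in RANKL. Summed transcripts of 10 medullary epithelial markers went from 528 to 665 CPM to 4354 to 5690 CPM. Those of 12 cornified keratinocyte markers went from 49.9 to 69.7 CPM to 1288 to 3731 CPM. Those of 12 neutrophil markers went from 18.1 to 54.4 CPM to 2705 to 5445 CPM. Most of the neutrophil sum in RANKL came from S100a8, S100a9 and Ltf, with RANKL means of 910, 1509 and 1033 CPM. The log2 fold changes of the 12 neutrophil markers ranged from 1.60 to 7.78, with a median of 4.19. In bulk tissue, a change in the number of cells of a type and a change in RNA per cell cannot be told apart. The part of these shifts in the results below was not tested.

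Serine proteases are made as inactive precursors and act once another protease has cut them, so they often work in cascades held in check by dedicated inhibitors. In stratified epithelium, matriptase and prostasin act together at the cell surface, and kallikreins such as Klk5, Klk7 and Klk14 cut the desmosomal proteins that hold surface cells together. Plau and Plat convert plasminogen to plasmin, which dissolves fibrin and matrix. Medullary epithelial cells of the thymus are known for transcribing, at low level, genes otherwise restricted to other organs, and salivary kallikreins and digestive trypsinogens are examples of such organ-restricted genes.

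Together the 69 protease genes made up 226, 191 and 206 CPM in control replicates 1 to 3 and 1938, 3493 and 1765 CPM in RANKL replicates 1 to 3. The mean sum was 11.6-fold higher in RANKL, and 8.91-fold higher without RANKL replicate 2, the library with the highest sum. Of the 69 genes, 55 had enough reads to be tested. At an adjusted p under 0.05 in edgeR's quasi-likelihood test, 51 of the 55 were higher in RANKL, where 33.8% of all 16096 tested genes were higher. Only Prss57 was lower, where 29.6% of all tested genes were lower, and Prss36, Prss41 and Prss2 were not called. Every RANKL library lay above every control in 50 of the 55 genes, against 36.1% of all tested genes, and below every control in 1 gene, against 34.1%. Among all tested genes 63.4% were called in either direction.

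The median log2 fold change of the 55 tested genes was 3.55, with a range of -3.56 to 9.56, beside a median of -0.02 and a middle 50% of -0.69 to 1.31 for all tested genes. An increase of 4-fold or more was seen in 42 of the 55 genes, and in 17.2% of all tested genes. The read filter bears on these counts. A gene that passed it through its RANKL libraries alone had to differ, and 32 of the 55 were below the filter's cutoff of 0.497 CPM in at least 1 control library. Of the 23 at or above the cutoff in all 3 controls, 20 were higher, 1 was lower and 2 were not called, with a median of 2.77. The like share over all genes at the cutoff in all 3 controls is not given here. The 33.8% above covers all 16096 tested genes and is not a matched background for the 23. The plot of changes by role shows that the increases were spread over all 7 role groups. Among medullary markers Epcam rose by 3.50 on the log2 scale, a rise exceeded by 30 of the 55 protease genes. Krt5 rose by 2.59, exceeded by 39, and Aire by 3.85, exceeded by 21. The 9 tested medullary markers ranged from 2.59 to 4.57, with a median of 3.35. The 12 cornified keratinocyte markers ranged from 2.78 to 8.52, with a median of 4.38. Differences between proteases and markers were not tested.

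**Figure D1:**
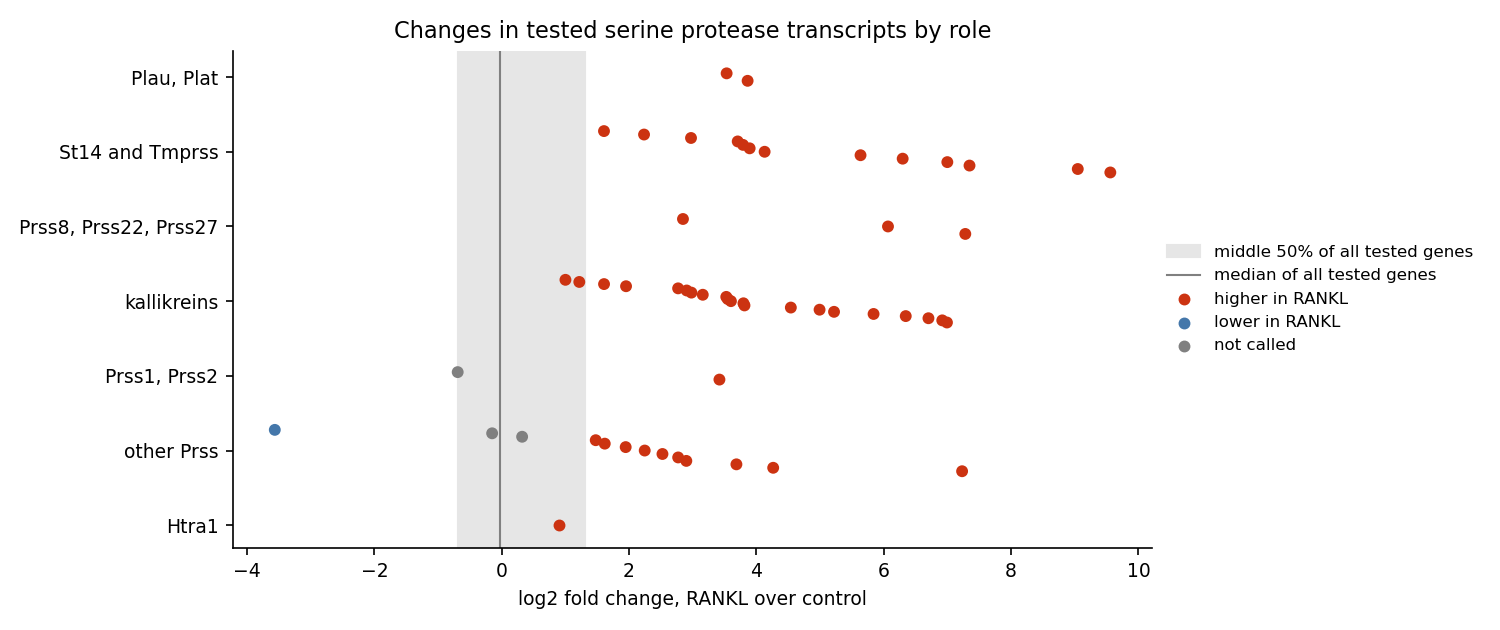
Log2 fold change, RANKL over control, of the 55 tested serine protease genes (1 point per gene) by role; the grey band holds the middle 50% of all 16096 tested genes and the line their median of -0.02. Most points lie right of the band, Prss57 is the single gene called lower, at -3.56, and the fitted values of genes with 0 to 3 control reads (Tmprss11f, Tmprss11e, Tmprss11a, Prss46) depend on the prior count.

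Both plasminogen activators rose. Plau, the urokinase activator that acts at the cell surface (Entrez gene 18792, chromosome 14, 20836662 to 20843388 in GRCm38), was at 30.9, 27.8 and 32.6 CPM in control replicates 1 to 3 and at 191, 595 and 270 CPM in RANKL replicates 1 to 3. The controls lay close together, the groups did not overlap, and RANKL replicate 2 held far more than the others. The means were 30.4 ± 2.44 and 352 ± 214 CPM (SD, n = 3 each), or 3.53 ± 0.39 on the log2 scale (± SE; edgeR adjusted p = 5.51e-05), and 2.93 without RANKL replicate 2. Plat, the tissue-type activator that works on fibrin (chromosome 8, 22757722 to 22782848), was at 12.2, 12.1 and 8.16 CPM in controls and at 188, 167 and 116 CPM in RANKL. Here RANKL replicate 1 was highest and replicate 3 lowest, with no overlap between groups. Plat rose 14.5-fold, by 3.86 ± 0.25 on the log2 scale (adjusted p = 5.54e-06).

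The rest of the plasminogen system moved in both directions. Of 10 tested genes among 12 listed partners, 5 were higher, 2 were lower and 3 were not called, with a median log2 fold change of 1.20. Plaur, the cell surface receptor that holds urokinase, was at 3.95, 2.88 and 3.58 CPM in controls and at 93.2, 198 and 122 CPM in RANKL, with RANKL replicate 2 highest as for Plau. It rose 39.6-fold, by 5.31 ± 0.32 on the log2 scale (adjusted p = 4.55e-06). The activator inhibitors Serpinb2 and Serpine2 rose too, 24.6-fold and 3.99-fold, as did the clearance receptor Lrp1, 5.76-fold. Plgrkt, a plasminogen receptor, fell by 0.74 on the log2 scale (adjusted p = 0.0119, or 0.0627 without RANKL replicate 1). Serpinf2, the plasmin inhibitor, fell by 1.31 (adjusted p = 0.049), and that call was lost when any library other than control replicate 3 was left out, with adjusted p from 0.0583 to 0.138. Anxa2 and S100a10, which bind plasminogen at the cell surface, were not called, at 0.40 and 0.18, and neither was the matrix protein Vtn, at -0.76. Plg, the plasminogen gene itself, a liver product, had 3 control reads and 25 RANKL reads and was not tested. In the same libraries 7 of 8 fibroblast markers were higher, and Thy1, which thymocytes also express, was lower, at -2.68. Without Thy1, a choice made after its values were seen, the sum of the other 7 was 410 to 513 CPM in controls and 4020 to 7815 CPM in RANKL. With it the sums were 1772 to 2078 CPM and 4307 to 8032 CPM. Among the 7, the call of Dcn was lost without RANKL replicate 1 or any 1 of the controls (adjusted p from 0.0511 to 0.099). The part of fibroblasts, or of cells with the neutrophil markers given above, in the rise of Plau, Plat and Plaur was not tested.

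The 16 type II transmembrane serine proteases are a class with 1 membrane anchor near the start of the protein. Of these, 13 were tested and all 13 were higher, where 33.8% of all tested genes were higher. Their median log2 fold change was 4.13. St14, Tmprss2, Tmprss4, Tmprss11bnl and Tmprss13 reached the read filter's cutoff in all 3 controls. The other tested genes of the class were below it in at least 1 control, so the filter bears on their calls as described above. St14 encodes matriptase (chromosome 9, 31088590 to 31131811), which acts with prostasin and activates growth factor precursors in epithelium. Its level was 29.0, 22.6 and 18.4 CPM in controls and 339, 462 and 239 CPM in RANKL, with RANKL replicate 2 highest and the groups far apart. It rose 14.9-fold, by 3.89 ± 0.29 on the log2 scale (adjusted p = 8.78e-06). Tmprss4, an epithelial enzyme of the same class (chromosome 9, 45172726 to 45204119), was at 13.01, 10.8 and 9.60 CPM in controls and at 169, 164 and 130 CPM in RANKL. Its RANKL libraries were nearly level, unlike those of Plau. The change was 13.8-fold, or 3.79 ± 0.20 (adjusted p = 3.64e-06).

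Tmprss2, known for priming respiratory virus spike proteins, was at 5.58, 4.38 and 3.44 CPM in controls and at 22.4, 16.9 and 23.9 CPM in RANKL. Its increase of 4.71-fold (2.24 ± 0.26, adjusted p = 8.29e-05) was among the smaller ones of the class, with no overlap. Tmprss13, an enzyme of skin and other surface epithelium, was at 2.11, 1.75 and 1.10 CPM in controls and at 17.4, 30.8 and 16.5 CPM in RANKL, where replicate 2 was highest. It rose 13.05-fold (3.71 ± 0.36, adjusted p = 2.96e-05). Tmprss6, the liver enzyme that controls hepcidin, had 16 control reads in all and rose 17.8-fold (4.13 ± 0.53, adjusted p = 0.000126). Tmprss9 rose by 2.97 on the log2 scale, or 3.80 without control replicate 2. Tmprss3 was at 0.738, 0.361 and 0.286 CPM in controls and at 1.35, 2.15 and 0.706 CPM in RANKL. It was called higher (1.61 ± 0.56, adjusted p = 0.0301) although RANKL replicate 3 lay below control replicate 1. That call was lost without control replicate 2 (adjusted p = 0.0987), control replicate 3 (0.107) or RANKL replicate 2 (0.106).

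Of the Tmprss11 genes matched by name, Tmprss11c had 2 reads over all libraries and was left out by the read minimum. The other 6 are airway trypsin-like proteases of squamous and airway epithelium. These 6 lie in a cluster on the minus strand of chromosome 5 between 86302854 and 86745807 in GRCm38, over 443 kb. In controls all but Tmprss11bnl were below the filter's cutoff in every library, and in RANKL they held some of the largest increases. Their summed level was 1.11, 2.78 and 1.29 CPM in controls and 199, 545 and 138 CPM in RANKL, where replicate 2 stood well above the others. The sum was 170-fold higher in RANKL, or 97.6-fold without RANKL replicate 2. The median fitted log2 fold change was 7.17, and 6.65 with the 3 genes of 3 or fewer control reads set at the values given for them below.

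Tmprss11g (86485877 to 86518600) was at 0.105, 0.155 and 0.143 CPM in controls, from 8 reads in all, and at 81.6, 187 and 49.7 CPM in RANKL. It rose 790-fold, by 9.56 ± 0.68 on the log2 scale (adjusted p = 7.98e-06), or by 8.87 without RANKL replicate 2. The gene listed as Tmprss11bnl, matched to Tmprss11b through RefSeq's synonyms, was at 0.632, 2.21 and 0.573 CPM in controls and at 81.8, 293 and 62.6 CPM in RANKL. In both groups replicate 2 was the highest library, and the groups were still far apart. Its log2 fold change of 6.999 ± 0.785 (adjusted p = 7.81e-05) was 7.88 without control replicate 2 and 5.99 without RANKL replicate 2. Tmprss11d, the mouse counterpart of human airway trypsin-like protease (86302854 to 86373387), was at 0.316, 0.361 and 0.430 CPM in controls and at 26.0, 42.0 and 20.7 CPM in RANKL. RANKL replicate 2 was again the highest, and it rose 80.2-fold (6.30 ± 0.38, adjusted p = 4.55e-06).

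The other Tmprss11 genes had almost no control reads. Tmprss11e was at 0.0527, 0 and 0.0477 CPM in controls, from 2 reads in all, and at 5.33, 11.7 and 2.35 CPM in RANKL, a ratio of 201 (95% counting interval 55.3 to 1663; adjusted p = 9.53e-05), or a ratio of 111 without RANKL replicate 2. Tmprss11a had 3 control reads and was at 2.80, 4.35 and 1.22 CPM in RANKL, a ratio of 56.8 (interval 19.1 to 278; adjusted p = 0.000233), or of 110 without control replicate 3. Tmprss11f had 0 control reads and was at 1.13, 6.75 and 1.65 CPM in RANKL. Against a floor of 3 reads over the control group it was at least 68.2-fold higher (adjusted p = 0.0011), at least 44.1-fold without control replicate 3 and at least 27.8-fold without RANKL replicate 2. All 6 genes were highest in RANKL replicate 2.

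Because these neighbours rose together, their promoters were searched for short motifs. RefSeq (GRCm38.p6) gave a window of 250 bases before to 50 bases after the transcript start for 57 of the 69 genes, and the first listed window of each gene was used. The AP-1-type motif TGANTCA allows any middle base, where the AP-1 consensus has C or G. It occurred on either strand in 7.93% of all 27025 windows and in 4 of the 57, those of Prss36, Tmprss11d, Tmprss11f and Tmprss5. Of these only the Tmprss11 pair belonged to strongly increased neighbours, and the 250 bases before their starts are printed 5′ to 3′ on the minus strand, Tmprss11d from chr5:86373388-86373637 and Tmprss11f from chr5:86632425-86632674, with the TGANTCA match in capitals.
Tmprss11d: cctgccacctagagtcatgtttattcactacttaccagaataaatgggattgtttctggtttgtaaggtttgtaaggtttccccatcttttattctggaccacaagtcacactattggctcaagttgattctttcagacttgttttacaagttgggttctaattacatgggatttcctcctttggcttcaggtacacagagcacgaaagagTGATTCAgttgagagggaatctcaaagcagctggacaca
Tmprss11f: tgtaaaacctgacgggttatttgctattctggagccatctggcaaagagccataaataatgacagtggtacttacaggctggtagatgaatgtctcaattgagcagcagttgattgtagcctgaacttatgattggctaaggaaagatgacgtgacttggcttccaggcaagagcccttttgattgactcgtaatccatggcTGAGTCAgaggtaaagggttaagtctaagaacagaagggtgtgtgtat
The match begins 39 bases before the start in Tmprss11d, as TGATTCA, and 48 bases before it in Tmprss11f, as TGAGTCA. Only the latter has the consensus middle base. The windows of the neighbours Tmprss11a, Tmprss11g and Tmprss11bnl held no TGANTCA match, and Tmprss11e had no window, so the motif was not shared across the cluster. A match is a description of the letters, and no binding was measured. The TATA motif TATAAA was found in 5 of the 57 windows (14.2% of all windows), the Grainyhead-type motif AACNGGTT in 1, that of Klk1b11 (2.01% of all), the C/EBP-type motif TTGCNNAA in 2 (10.8% of all) and an NF-kB-type motif in 0 (1.62% of all). Each of the 5 shares was below that of all windows. Against the 11988 windows of tested genes, TGANTCA was slightly more frequent (7.02% of the 57 against 5.99%), TATAAA was level (8.77% against 8.76%) and the others were below. The sets are unlike, as the 57 include untested genes, among them Tmprss5 with TGANTCA and Klk15 and Prss28 with TATAAA. Of the 42 windows of protease genes called higher, 2 held TGANTCA and 2 held TATAAA. Prss23 held TGANTCA in 2 windows of other transcript starts, which were not counted.

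The 3 epithelial Prss genes rose with matriptase. Prss8 encodes prostasin, matriptase's partner at the cell surface (chromosome 7, 127925717 to 127930149). It was at 5.005, 5.05 and 3.44 CPM in controls and at 28.9, 46.6 and 21.5 CPM in RANKL, with no overlap, and rose 7.19-fold (2.85 ± 0.32, adjusted p = 6.15e-05). Kat8, which overlaps Prss8 on the other strand, was lower in RANKL, at -0.89 on the log2 scale. Prss22, also called tryptase epsilon (chromosome 17, 23993534 to 24000722), was at 1.11, 1.34 and 1.53 CPM in controls and at 64.5, 148 and 55.7 CPM in RANKL. It rose 67.5-fold (6.07 ± 0.44, adjusted p = 7.93e-06). Prss27, also called marapsin, a protease of squamous epithelium (chromosome 17, 24038243 to 24045949), was at 0.211, 0.361 and 0.859 CPM in controls and at 66.7, 120 and 42.5 CPM in RANKL. The rise of Prss27 was 160-fold (7.28 ± 0.54, adjusted p = 9.06e-06), or 8.02 on the log2 scale without control replicate 3. Prss22 and Prss27 are neighbours, and both were highest in RANKL replicate 2 and lowest in replicate 3.

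**Figure D2:**
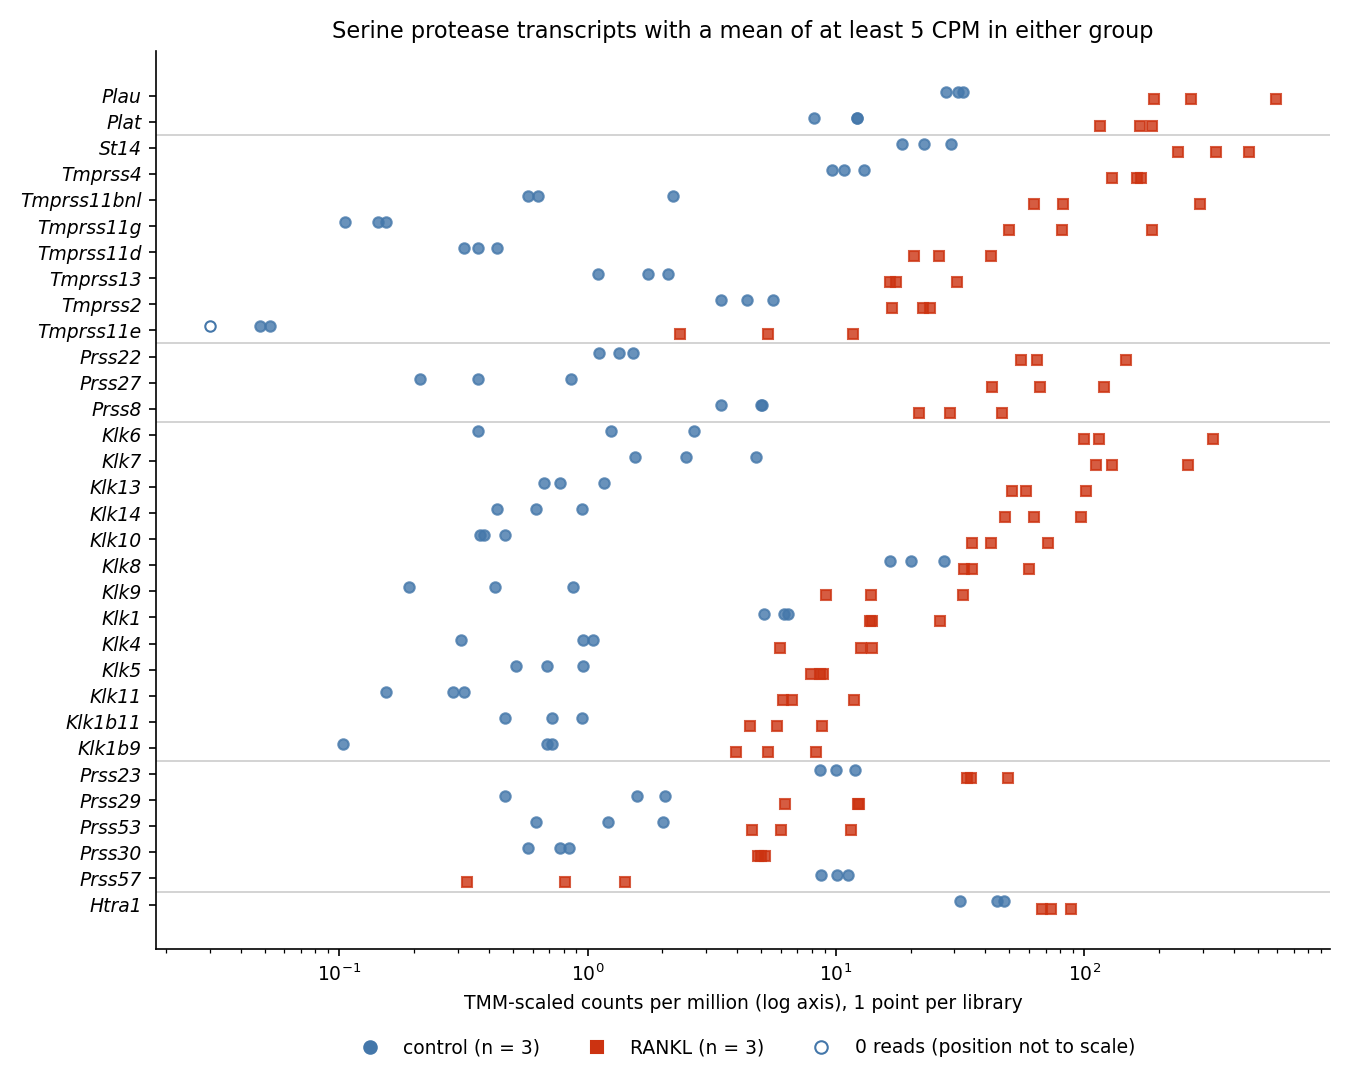
TMM-scaled CPM (log axis) in each of the 3 control (circles) and 3 RANKL (squares) libraries for the protease genes with a mean of at least 5 CPM in either group, ordered by role; the open circle is a library with 0 reads and has no true position on the axis. Control and RANKL points are separate in every gene drawn, and Prss57 is the gene whose RANKL points lie to the left.

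The 25 kallikreins that met the read minimum lie in 1 cluster, all on the plus strand of chromosome 7 between 43680880 and 44229622, over 549 kb. At its start lie Klk14 to Klk4 and Klk15, the tissue kallikreins shared with other mammals, several of them enzymes of skin shedding. After these come the Klk1b genes, a rodent expansion of glandular kallikreins of salivary gland, and then Klk1. All 21 tested kallikreins were higher in RANKL, where 33.8% of all tested genes were higher. Their median log2 fold change was 3.60, with a range of 1.00 to 6.99. Klk1, Klk1b27, Klk5, Klk7, Klk8 and Klk13 reached the read filter's cutoff in all 3 controls. The other tested kallikreins were below it in at least 1 control, and a gene that passed through RANKL alone had to differ. The sides of the cluster differed in size of change: the median was 5.22 over 11 tested genes among Klk4 to Klk15 and 2.94 over 10 tested genes among Klk1 and Klk1b. Summed levels of Klk4 to Klk15 were 32.9, 22.4 and 35.0 CPM in controls and 427, 988 and 480 CPM in RANKL, 21.0-fold higher. Those of Klk1 and Klk1b were 12.1, 9.32 and 10.03 CPM in controls and 41.2, 32.9 and 66.3 CPM in RANKL, 4.46-fold higher.

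**Figure D3:**
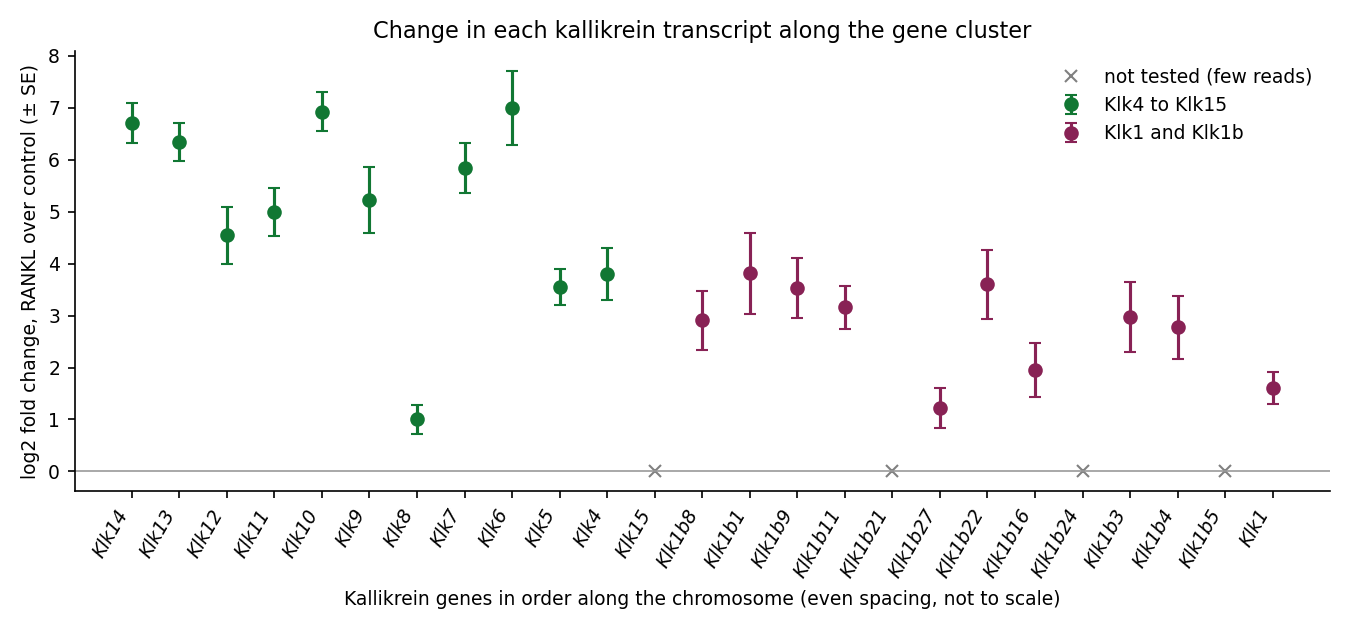
Log2 fold change, RANKL over control, of each kallikrein (point; bar, SE) in gene order along the cluster from Klk14 to Klk1, evenly spaced; crosses on the zero line mark the 4 genes with too few reads to test and carry no value. All 21 tested genes lie above 0, the highest points are in the Klk14 to Klk4 stretch, and Klk8, at 1.00, is its exception.

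Among kallikreins, Klk6 and Klk7 carried the most RANKL reads. Klk6, an enzyme of skin and brain (43824438 to 43832027), was at 2.69, 0.361 and 1.24 CPM in controls and at 100, 331 and 115 CPM in RANKL. Its controls spread widely and RANKL replicate 2 stood apart, but the groups were well separated. Klk6 rose by 6.99 ± 0.72 on the log2 scale (adjusted p = 4.75e-05), by 7.78 without control replicate 1 and by 6.26 without RANKL replicate 2. Klk7, the chymotrypsin-like enzyme of the outer skin, was at 4.74, 1.55 and 2.48 CPM in controls and at 112, 261 and 129 CPM in RANKL. The increase was 57.2-fold (5.84 ± 0.48, adjusted p = 1.44e-05). Klk5, which activates Klk7 and Klk14, was at 0.685, 0.515 and 0.955 CPM in controls and at 7.96, 8.66 and 8.90 CPM in RANKL. It was level across RANKL libraries and rose less than its targets, 11.8-fold (3.55 ± 0.34, adjusted p = 2.66e-05); the difference between these genes was not tested.

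Klk14, another enzyme of skin shedding, was at 0.948, 0.618 and 0.430 CPM in controls and at 48.1, 97.4 and 62.5 CPM in RANKL, 104-fold higher (6.70 ± 0.38, adjusted p = 4.1e-06). Klk13, its neighbour, was at 1.16, 0.773 and 0.668 CPM in controls and at 51.3, 102 and 58.3 CPM in RANKL, 81.4-fold higher (6.35 ± 0.37, adjusted p = 4.1e-06). The 2 neighbours ranked the libraries in the same order within each group. For Klk10 the values were 0.369, 0.464 and 0.382 CPM in controls and 42.0, 71.7 and 35.2 CPM in RANKL, 123-fold higher (6.92 ± 0.37, adjusted p = 3.64e-06). Klk9 was at 0.421, 0.876 and 0.191 CPM in controls and at 9.15, 32.6 and 13.8 CPM in RANKL. Its log2 fold change of 5.22 ± 0.63 (adjusted p = 9.45e-05) was 5.89 without control replicate 2 and 4.53 without RANKL replicate 2. Klk11 was at 0.316, 0.155 and 0.286 CPM in controls and at 6.13, 11.9 and 6.64 CPM in RANKL, 32.5-fold higher. Klk12, from 9 control reads in all, rose 23.9-fold. In all 6 of these genes RANKL replicate 2 was the highest library.

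Klk4 and Klk8 departed from their neighbours. Klk4, the enzyme that clears enamel matrix from growing teeth, was at 1.05, 0.309 and 0.955 CPM in controls and at 13.9, 5.97 and 12.6 CPM in RANKL. Its RANKL replicate 2 was the lowest of the 3, and it rose 14.0-fold (3.80 ± 0.50, adjusted p = 0.000154). Klk8, also called neuropsin (43797532 to 43803826), was at 20.1, 16.6 and 27.2 CPM in controls and at 32.7, 59.8 and 35.2 CPM in RANKL. Per kilobase of exon it was the kallikrein most abundant in control thymus, and it had the smallest increase of the 21, 2.00-fold (1.00 ± 0.27, adjusted p = 0.00978). The groups did not overlap, but the call was lost without control replicate 2 (0.82, adjusted p = 0.0512) and in a test against a 1.5-fold change (adjusted p = 0.0601). Klk8 made up 8.68% to 13.2% of all reads of the 69 genes in controls and 1.69% to 2.00% in RANKL.

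Klk1, the true tissue kallikrein that releases kinins (44225360 to 44229622), was at 6.43, 6.18 and 5.11 CPM in controls and at 13.9, 13.8 and 26.3 CPM in RANKL. It rose 3.05-fold (1.61 ± 0.30, adjusted p = 0.00124), with RANKL replicate 3 highest. Of the Klk1b genes, Klk1b11 was at 0.948, 0.464 and 0.716 CPM in controls and at 5.81, 4.51 and 8.81 CPM in RANKL, 8.99-fold higher (3.16 ± 0.42, adjusted p = 0.000162). Klk1b9 was at 0.685, 0.103 and 0.716 CPM in controls and at 5.33, 3.94 and 8.34 CPM in RANKL, 11.7-fold higher (3.53 ± 0.58, adjusted p = 0.000593). RANKL replicate 3 was again the highest for both. The log2 fold changes of the other 7 tested Klk1b genes ran from 1.22 in Klk1b27 to 3.81 in Klk1b1, which was 5.91 without control replicate 3. The call of Klk1b27 was lost without control replicate 2 (adjusted p = 0.0544), control replicate 3 (0.0611) or RANKL replicate 3 (0.0647).

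Klk1 and the Klk1b genes are near copies, so the split of reads among them is uncertain. In each of these 13 genes, 10.1% to 33.9% of all 50-base stretches of its transcripts also occurred in another gene, with a median of 17.2%. Among the 12 genes Klk4 to Klk15 only Klk14 shared any, 4.50%. The likeness extends into the promoters of the Klk1b genes. It hardly reaches that of Klk1, whose window was 43.0% (Klk1b8) to 54.7% (Klk1b21) identical to theirs. The RefSeq windows of pairs of Klk1 or Klk1b genes had a median identity of 74.7% over 78 pairs, and those of pairs within Klk4 to Klk15 had 45.3% over 66 pairs. The pair with the highest identity, Klk1b11 and Klk1b16 at 90.3%, is printed to show how alike these copies are: the 250 bases before the start on the plus strand of chromosome 7, Klk1b11 from chr7:43995627-43995876 and Klk1b16 from chr7:44137040-44137289, with the bases that differ in an edit-distance alignment of the 2 windows in capitals.
Klk1b11: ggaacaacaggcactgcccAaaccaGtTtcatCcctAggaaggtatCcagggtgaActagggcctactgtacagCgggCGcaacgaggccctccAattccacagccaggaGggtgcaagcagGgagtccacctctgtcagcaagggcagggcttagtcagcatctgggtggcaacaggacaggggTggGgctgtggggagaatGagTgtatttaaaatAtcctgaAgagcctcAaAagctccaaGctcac
Klk1b16: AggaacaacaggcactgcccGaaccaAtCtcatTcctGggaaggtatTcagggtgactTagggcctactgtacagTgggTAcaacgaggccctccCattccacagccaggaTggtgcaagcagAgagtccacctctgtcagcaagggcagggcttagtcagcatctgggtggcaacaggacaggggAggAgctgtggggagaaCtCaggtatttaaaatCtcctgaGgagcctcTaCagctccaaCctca
The windows are offset by 1 base, so an extra base stands at the start of the Klk1b16 line. Klk1b16 rose by 1.95 on the log2 scale and Klk1b11 by 3.16, a difference that was not tested.

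The 3 RANKL libraries did not rank the protease groups alike. Replicate 2 was the highest RANKL library in 9 of 11 called genes among Klk4 to Klk15 and in 6 of 6 Tmprss11 genes, and replicate 3 in 9 of 10 called genes among Klk1 and Klk1b. Among all 5437 genes called higher, replicate 2 was highest in 43.2% and replicate 3 in 17.2%. Cornified keratinocyte markers summed to 1288, 3731 and 1650 CPM in RANKL replicates 1, 2 and 3, highest in replicate 2 as for Klk4 to Klk15 and Tmprss11. Medullary markers summed to 4354, 5690 and 4421 CPM. Krt5, at 2158, 2791 and 2128 CPM, was the largest part of that sum. Aire, the regulator of organ-restricted genes in medullary epithelium, was at 110, 104 and 235 CPM, highest in replicate 3 as for Klk1 and Klk1b. It was singled out after its values were seen. The other tested medullary markers were split: Fezf2 and Cd80 were highest in replicate 3, Epcam and Tnfrsf11a in replicate 1. Krt5, Krt14, Cldn3 and Cldn4 were highest in replicate 2. With 3 libraries this is a description, and since the Klk1b genes share stretches of sequence their ranks are not independent. Whether these cell markers account for the ranks was not tested.

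**Figure D4:**
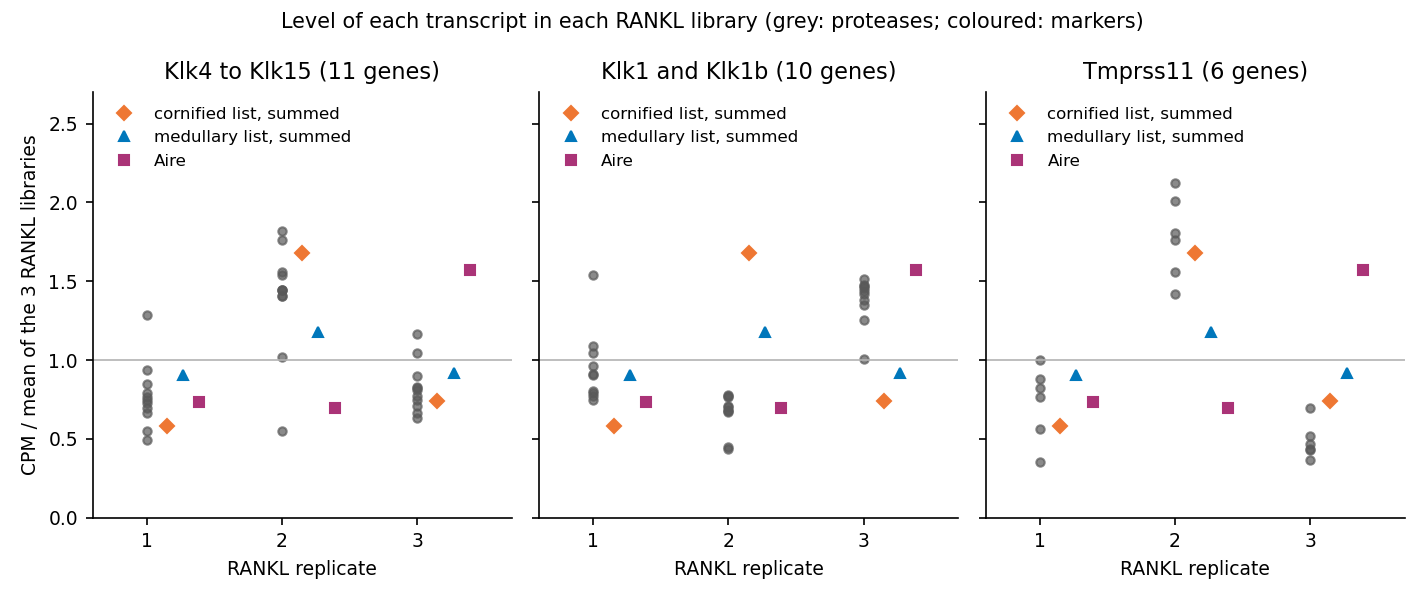
Level of each called gene in RANKL replicates 1, 2 and 3, divided by its mean over those 3 libraries (grey points), for Klk4 to Klk15, Klk1 with Klk1b, and Tmprss11; the coloured symbols, the same in each panel, are summed cornified markers, summed medullary markers and Aire. Grey points are highest in replicate 2 in the left and right panels, where 9 of 11 and 6 of 6 genes peak, and in replicate 3 in the middle panel, where 9 of 10 do.

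The remaining Prss genes include enzymes of testis, uterus, mast cells and granulocytes. Of 13 tested, 10 were higher, 1 was lower and 2 were not called. Prss23, a widely made secreted enzyme (chromosome 7, 89507783 to 89527187), was at 8.64, 11.9 and 10.03 CPM in controls and at 33.7, 49.3 and 35.0 CPM in RANKL, 3.86-fold higher (1.95 ± 0.22, adjusted p = 6.78e-05). Prss29, an implantation serine protease of the uterus, was at 1.58, 0.464 and 2.05 CPM in controls and at 12.3, 6.22 and 12.3 CPM in RANKL, 7.52-fold higher (2.90 ± 0.50, adjusted p = 0.000798). RANKL replicate 2 was lowest for it, as for Klk4. Prss30 was at 0.843, 0.773 and 0.573 CPM in controls and at 5.17, 4.998 and 4.85 CPM in RANKL, 6.86-fold higher and nearly level in RANKL (2.77 ± 0.35, adjusted p = 0.000111). Prss53 was at 1.21, 2.01 and 0.621 CPM in controls and at 4.57, 11.5 and 6.03 CPM in RANKL, 5.74-fold higher (2.52 ± 0.50, adjusted p = 0.0017). As 76.2% of its 50-base stretches also occur in the overlapping gene Gm21974, its value is uncertain.

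Prss34, a protease of basophils and mast cells, rose 12.97-fold (3.69 ± 0.64, adjusted p = 0.000756), or by 4.88 on the log2 scale without control replicate 1. In the same libraries all 10 listed mast cell and basophil markers were higher, with summed levels of 38.1 to 58.4 CPM in controls and 222 to 280 CPM in RANKL, among them the tryptase Tpsab1, 34.0-fold. The calls of 3 of the 10 were lost with a library left out: Ms4a2 without RANKL replicate 3 (1.11 in place of 1.93, adjusted p = 0.235) or any 1 of the controls (0.0631 to 0.115), Kit without control replicate 2 (0.0612), control replicate 3 (0.0572) or RANKL replicate 1 (0.0523), and Cpa3 without RANKL replicate 3 (0.0505). That of Ms4a2 was also lost by limma-voom (0.0577) and with the title-number block (0.0756). The part of these cells in the rise of Prss34 was not tested. Prss32 rose 19.6-fold (4.26 ± 0.42, adjusted p = 3.18e-05) and Prss35 by 2.25 on the log2 scale. Prss46 had 0 control reads and was at 1.02, 0.894 and 0.801 CPM in RANKL, at least 17.8-fold higher against the floor of 3 reads over the control group (adjusted p = 0.000379), and at least 11.5-fold without control replicate 3.

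The calls of Prss12 and Prss50 were less stable. Prss12, also called neurotrypsin, an enzyme of synapses, rose by 1.48 (adjusted p = 0.0249), and the call was lost without control replicate 2 (0.0531), control replicate 3 (0.0942) or RANKL replicate 2 (0.11). Prss50 rose by 1.62 (adjusted p = 0.0169), and the call was lost without control replicate 2 (0.0576), control replicate 3 (0.0564) or RANKL replicate 1 (0.0615).

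Prss57, which encodes a serine protease of neutrophil granules (chromosome 10, 79781474 to 79794684), moved the other way. It was at 8.69, 11.2 and 10.1 CPM in controls and at 0.807, 0.325 and 1.41 CPM in RANKL, with every RANKL library far below every control. Means were 9.997 ± 1.25 and 0.848 ± 0.545 CPM (SD, n = 3 each), and it fell by 3.56 ± 0.46 on the log2 scale (adjusted p = 0.000145). All 12 listed neutrophil markers were higher in the same libraries. Among them the granule proteases Elane, Prtn3 and Ctsg rose by 1.60, 2.92 and 2.49, the call of Elane (adjusted p = 0.0361) being lost without control replicate 1 (0.0573), control replicate 3 (0.065), RANKL replicate 2 (0.0509) or RANKL replicate 3 (0.0844). The call of Ngp was lost without RANKL replicate 3 (1.72 in place of 2.38, adjusted p = 0.0833) and without the read filter (0.0934). All 10 listed double-positive thymocyte markers were lower, with a median of -4.76. The part of the fall in thymocyte transcripts in the fall of Prss57 was not tested. Palm, which overlaps Prss57 on the other strand, was also lower, at -1.67. Fstl3, on the other strand, and Gm48495, on the same strand, overlap Prss57 too, and their values are not given here.

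The trypsinogens Prss1 and Prss2, digestive enzymes of the pancreas, did not move alike. Prss1 was at 0.105, 0 and 0.191 CPM in controls and at 0.807, 0.853 and 1.74 CPM in RANKL, with no overlap. It rose 11.5-fold (3.42 ± 0.74, adjusted p = 0.00286), or by 4.28 on the log2 scale without control replicate 3. Prss2 was at 2.21, 1.75 and 4.01 CPM in controls and at 1.99, 0.813 and 2.17 CPM in RANKL. Its groups overlapped, and its log2 fold change was -0.69 ± 0.48 (adjusted p = 0.233). Since 54.9% of the 50-base stretches of Prss1 occur in other trypsinogen genes, the split between them is uncertain. Listed pancreatic genes had summed levels of 6.53 to 6.68 CPM in controls and 13.3 to 26.0 CPM in RANKL. Of 5 tested, Ctrb1 and Try5 were higher, Try5 not without control replicate 2 (adjusted p = 0.0759) or RANKL replicate 3 (0.0884). Amy2a5, a pancreatic amylase gene, had 0 reads in every library, as had Ccl21a, 1 of the 10 listed medullary markers. How reads that match several genes were counted is not given, so 0 reads may not mean that a transcript was absent. Listed salivary genes summed to 8.11 to 17.9 CPM in controls and 10.4 to 16.6 CPM in RANKL, overlapping. Of 4 tested, 2 were higher, and Amy1 and Egf were not called. Amy1 made up most of the control sums, at 6.37, 6.75 and 16.0 CPM, against 4.79, 5.93 and 5.46 CPM in RANKL. It was called lower without control replicate 1 (adjusted p = 0.0305) or control replicate 2 (0.0477), by DESeq2 (0.0398), without the read filter (0.0406) and with the title-number block (0.0255).

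Prss36 was at 3.48, 4.84 and 4.63 CPM in controls and at 3.61, 4.10 and 3.96 CPM in RANKL, overlapping, with a log2 fold change of -0.15 ± 0.29 (adjusted p = 0.667). Prss41 was not called either, at 0.32 ± 0.48 (adjusted p = 0.581). Htra1, a secreted protease that cuts matrix proteins and binds TGF-beta family members (chromosome 7, 130936203 to 130985658), was at 47.3, 31.6 and 44.4 CPM in controls and at 88.1, 73.3 and 67.8 CPM in RANKL. It was the most abundant of these genes in controls per kilobase of exon and rose by less than most, 1.86-fold (0.89 ± 0.19, adjusted p = 0.00283), with no overlap.

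The order of levels changed between groups. Per kilobase of exon, Htra1 led in controls at 20.1 CPM per kb, followed by Klk8 at 16.1, Plau at 12.99, St14 at 7.15 and Klk1 at 6.19. In RANKL Plau led at 150 CPM per kb, followed by Klk6 at 120, St14 at 106, Klk7 at 88.3 and Prss22 at 67.5, while Htra1 was at 37.4 and Klk8 at 32.2. Plau and St14 were near the top in both groups, whereas Klk6, Klk7 and Prss22 were at 0.945, 1.54 and 1.00 CPM per kb in controls.

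Inhibitors, receptors and substrates of these proteases, with partners of the substrates, were followed through lists. Of 14 tested inhibitors, 13 were higher, with a median log2 fold change of 2.53, and Tfpi was not called, at 0.37. Spink5, the inhibitor of Klk5, Klk7 and Klk14 known as LEKTI, was at 12.1, 10.8 and 4.63 CPM in controls and at 390, 802 and 345 CPM in RANKL, highest in replicate 2. It rose 55.8-fold (5.80 ± 0.47, adjusted p = 1.24e-05). Spink12 rose 116-fold, Slpi, the mucosal inhibitor, 9.85-fold and Serpinb5 7.39-fold. The matriptase inhibitors differed in size of change: Spint1 rose 4.98-fold, and Spint2, abundant in controls, by 0.57 on the log2 scale (adjusted p = 0.033), a call lost without control replicate 1 (0.111), control replicate 2 (0.132), RANKL replicate 1 (0.0719) or RANKL replicate 3 (0.0677).

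Of the 4 protease-activated receptors, which signal when a protease cuts them, F2r and F2rl1 rose, F2rl3 fell and F2rl2 was not called. F2rl1, the epithelial receptor cut by trypsin-like enzymes and by several kallikreins, rose 5.92-fold (2.57 ± 0.22, adjusted p = 1.72e-05), and F2r, the thrombin receptor, 2.14-fold. F2rl3 was at 5.90, 5.46 and 6.06 CPM in controls and at 0.807, 1.504 and 0.942 CPM in RANKL, and fell by 2.40 ± 0.35 on the log2 scale (adjusted p = 0.000287). F2rl2 was at 0.94 (adjusted p = 0.0584, or 0.0173 without RANKL replicate 2).

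Of 11 tested substrates and partners of substrates, 9 were higher and 2 were not called. The corneodesmosome proteins that skin kallikreins cut all rose: Cdsn, 37.5-fold, Dsc1, 36.9-fold, Dsg1a, 18.2-fold, and Dsg1b, 20.7-fold. Without control replicate 1 the log2 fold change of Dsc1 went from 5.22 to 6.88, that of Dsg1a from 4.19 to 4.90 and that of Dsg1b from 4.37 to 5.10. The growth factor precursors Hgf and Mst1, which matriptase-type enzymes activate, rose by 2.77 and 1.59, and their receptors Met and Mst1r by 2.52 and 2.50. The subunits of the sodium channel that prostasin and Tmprss enzymes activate moved least. Scnn1a at 0.17 and Scnn1g at 0.46 were not called. Scnn1b rose by 0.97 (edgeR adjusted p = 0.042), with adjusted p from 0.0506 to 0.118 when any single library was left out. Without control replicate 1, Scnn1a was called higher (0.52, adjusted p = 0.0493).

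**Figure D5:**
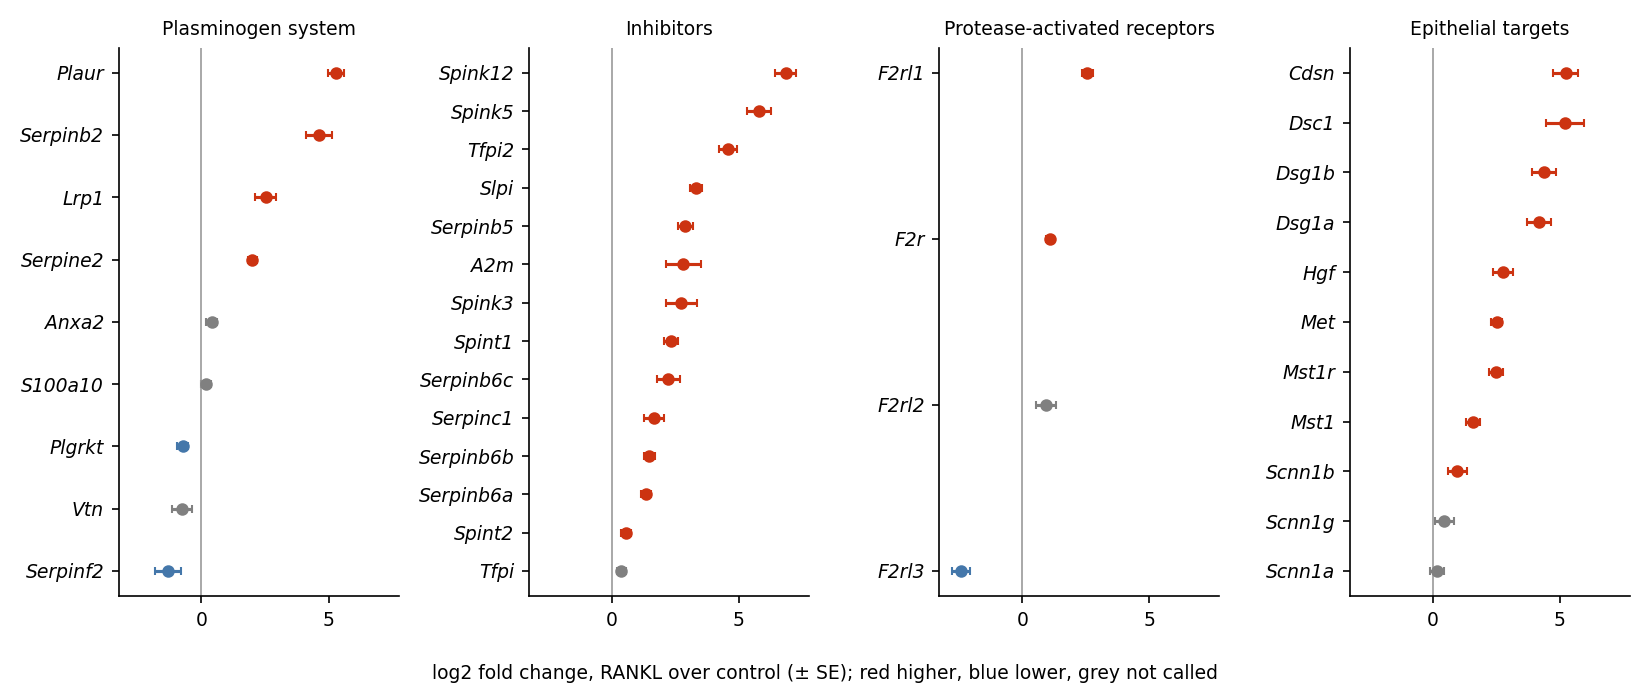
Log2 fold change, RANKL over control, of tested inhibitors, receptors, substrates with their partners, and plasminogen-system genes (1 point per gene), coloured by call. Bars are SE, and 1 tested gene is not drawn. Most points lie right of 0, and F2rl3, Serpinf2 and Plgrkt are the genes called lower.

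The 14 genes too low to be tested were Klk15, Klk1b21, Klk1b24, Klk1b5, Tmprss5, Tmprss7, Tmprss15, Prss28, Prss33, Prss37, Prss38, Prss39, Prss51 and Prss56. In 8 of them every RANKL library lay above every control, and in the other 6 (Tmprss7, Tmprss15, Prss33, Prss38, Prss39 and Prss51) the groups overlapped. Tmprss15, the enteropeptidase that activates trypsinogen in the gut, had 3 control reads and a ratio of 10.1 (95% counting interval 3.18 to 51.6), which was 20.4 without control replicate 2, 5.18 without RANKL replicate 1 and 15.9 without RANKL replicate 2. Prss56 also had 3 control reads and a ratio of 15.04 (4.85 to 75.5), or 30.7 without control replicate 1. These intervals cover counting error only.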

How the data were processed

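The authors deposited 1 table of raw counts, whole reads per gene for 6 thymus libraries. Per the labels' protocols, stranded mRNA libraries were made from total RNA, and per the submitters' processing notes STAR and mm10 were used. Neither the version of STAR, nor the tool that counted reads, its strand setting or the annotation is given in the sources used here, and overlapping or near-identical genes may share reads.

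In R 4.3.3, edgeR 4.0.16 was used to filter genes (filterByExpr), compute TMM factors and run its robust quasi-likelihood test on group alone, two-sided. Benjamini-Hochberg adjustment covered 16096 genes, and genes under 0.05 were called. Errors of log2 fold changes are |log2 fold change| divided by the square root of F. Alternatives used DESeq2 1.42.0, limma 3.58.1 (voom), other scalings, filters and thresholds, a block for title-number ranges, and each library left out. The code was tested on simulated counts. Replicates are numbered in accession order and pair nothing. Floors of 3 reads and 95% intervals, exact for a ratio of counts, cover counting error only, and library totals of 18254870 to 25357060 reads set them.

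The genes and lists were chosen with earlier results of these data known, so lists are described by counts and medians without tests. Every gene matching the name rule is accounted for. Values in every library are given for Plau, Plat, St14, Htra1, genes of at least 5 CPM in either group, and genes lower or not called of at least 1 CPM; others are given by ranges or, for groups of 8 or fewer, by name. Names beyond this were chosen after their values were seen. Gene positions are RefSeq's (GRCm38.p6), and lengths are unions of GENCODE M21 exons. Protein sequences were not used here, and the values of 2 listed genes are not reported here. Figures were drawn with matplotlib 3.10.9.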

Additional observations from a re-analysis of the deposited data

How the results depend on the processing

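The counts for all genes and for the proteases stayed within 1.5 times their reported values under all 16 alternatives, except that a test against a 1.5-fold change left 2654 genes lower in RANKL. Of the protease genes, 46 to 59 were called higher under the 10 alternatives that kept all libraries and 50 to 56 when a library was left out, with Prss57 lower each time. The count of 59 came from dropping the read filter, which let all 69 genes be tested, and 50 of the 51 genes called higher were also called by DESeq2, all but Prss50 (adjusted p = 0.0645). limma-voom did not call Prss12 (adjusted p = 0.0555). No direction of a called gene reversed. The other scalings moved the median of all genes by at most 0.02 on the log2 scale. With the title-number block, which leaves control replicate 2 alone in its range, 49 were higher, Tmprss3 (adjusted p = 0.0931) and Prss12 (0.0666) being lost. No paired analysis was possible because the labels number no replicates. Genes with fewer than about 10 control reads, among them most Tmprss11 and several Klk1b genes, have increases whose size rests on those few reads.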

Other observations

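Related proteases outside the name rule were followed as well. Hpn, hepsin, a transmembrane serine protease of liver and kidney, rose 6.95-fold, from 1.16, 1.70 and 1.05 CPM in controls to 11.03, 7.52 and 8.62 CPM in RANKL (log2 fold change 2.79 ± 0.33, edgeR adjusted p = 8.27e-05). Corin, the heart enzyme that activates natriuretic peptides, was not called, at 0.21 with overlapping groups. Of the relatives of Htra1, Htra3 rose 2.46-fold and Htra4 2.78-fold, and Htra2, the mitochondrial member, was not called, at 0.33. Of listed germ cell genes, Ldhc rose by 4.39 on the log2 scale, or 5.54 without control replicate 1, and Tssk6 fell by 1.33 (adjusted p = 0.0229), a call lost without control replicate 3 (0.0817), RANKL replicate 1 (0.0525) or RANKL replicate 3 (0.102).

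Of the 16 genes that matched the name rule with fewer than 10 reads, Prss58 and Klk1b26 had 0 reads in all 6 libraries together, and Prss40 and Klk1b7-ps, just under the minimum, had 8 each. Just inside it, Prss38 had 10 reads and Prss39 had 14. Klk1b26 overlaps Klk1b21 on the same strand and shares 50-base stretches with other Klk1b genes, so its 0 reads are uncertain.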
